A study of Mus musculus with 15 samples.

Results

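The genes described here encode the enzymes that write and erase trimethylation of histone H3 at lysine 27 (H3K27me3). They are the core of Polycomb repressive complex 2 (PRC2), namely Ezh1, Ezh2, Eed and Suz12, its accessory subunit Jarid2, and the demethylases Kdm6a (UTX) and Kdm6b (JMJD3). They were taken by name, and all 7 were found, each with 1 probe set, among 19500 genes with a single symbol in the array's annotation. The question was how the RNA of each gene changed over postnatal life in RNA bound to tagged ribosomes of the cerebellum.

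The RNA came from mice with the transgene Tg(Pcp2-L10a-Egfp), which the animals of every age carried. In these mice the promoter of Pcp2, a gene of Purkinje cells, drives ribosomal protein L10a fused to green fluorescent protein, and tagged ribosomes with their RNA are collected on beads with antibodies against the tag (translating ribosome affinity purification, TRAP). Of the 15 arrays, 3 were made at birth (P0) and 3 each at 7, 15, 21 and 56 days of age (P7, P15, P21 and P56). Per the labels, cerebella were pooled before homogenisation. They give no sex of the animals and no number of animals per pool, and do not say whether arrays of the same age were made from different pools of mice. If they were not, p-values reflect technical spread only. Values are log2 signals, so a difference of 1 is a doubling. Tests are limma's moderated tests over all 22092 probe sets, and a difference was called at a Benjamini-Hochberg adjusted p under 0.05.

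PRC2 places methyl groups on H3K27, a mark that keeps genes silent and is passed on through cell division. Ezh1 and Ezh2 are its alternative catalytic subunits. Ezh2 is typical of dividing progenitors, and Ezh1 of cells that have left the cycle. Eed reads the mark and stimulates the enzyme, Suz12 is the scaffold that binds the other subunits, and Jarid2 helps bring the complex to chromatin. Kdm6a and Kdm6b remove the mark. In the nervous system the switch between writing and erasing accompanies the maturation of neurons.

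Some facts of the whole series bear on every comparison below. Pcp2 itself had signals of 8.49 to 8.62 at P0, 13.15 to 13.18 at P7 and 13.68 to 13.75 at P56. The mean signal of 7 measured Purkinje cell markers was 9.37 to 9.42 on the P0 arrays and 13.09 to 13.39 on the arrays of the later ages, and Ppp1r17 lay below the lower quartile of each P0 array. All 7 rose from P0 to P7. Set against P0, a shift in which cells the beads sampled and a shift inside a cell cannot be told apart, and in bulk RNA fewer cells of a type cannot be told apart from less RNA per cell. No batch is given in the sources used here, so age and any batch that follows it cannot be told apart. Xist, the RNA of the inactive X, had signals of 11.86 to 11.92 at P0 and 6.47 to 6.61 at P7. The labels give no sex, so age and any difference in sex between P0 and later pools cannot be told apart. The median signal of an array was 7.91 to 7.93 for P0, between 7.77 and 7.87 for the next 3 ages and 7.59 to 7.60 for P56. When each median was set to 0, the median change of all probe sets was 0.41 for P56 minus P0, 0.27 for P56 minus P7 and 0.21 for P56 minus P21, in place of 0.08, 0.00 and -0.03 in the deposited values. Signals of different probe sets are not compared with each other as levels.

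Ezh2 fell through postnatal life. It had the lowest P56 level relative to P0 of the 7 genes. Its signals were 10.62, 10.61 and 10.63 at P0, and 9.75, 9.65 and 9.64 at P7. They were 9.00, 8.98 and 9.18 at P15, and 8.81, 8.77 and 9.02 at P21, and reached 7.48, 7.80 and 7.90 at P56. Every P0 array lay above every P7 array, every P7 array above every P15 array, and every P21 array above every P56 array, while P15 and P21 overlapped.

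From P0 to P56 Ezh2 fell by 2.89 on the log2 scale (SE 0.10, 95% interval -3.10 to -2.69, limma adjusted p 2.52e-14), so its P56 signal was 0.135 of that at P0. This change stood at percentile 1.8 of the changes of all probe sets. The fall was 0.94 in the first week (limma adjusted p 1.47e-07), 0.62 from P7 to P15 (0.000189) and 1.14 from P21 to P56 (3.24e-08). The step from P15 to P21 was -0.19, with a 95% interval of -0.40 to 0.02 (limma adjusted p 0.223). The order of its levels was therefore P0, P7, then P15 and P21 without a called difference, then P56. Over the 23 alternative settings the change from P0 to P56 ranged from -2.98 to -2.57.

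**Figure D1:**
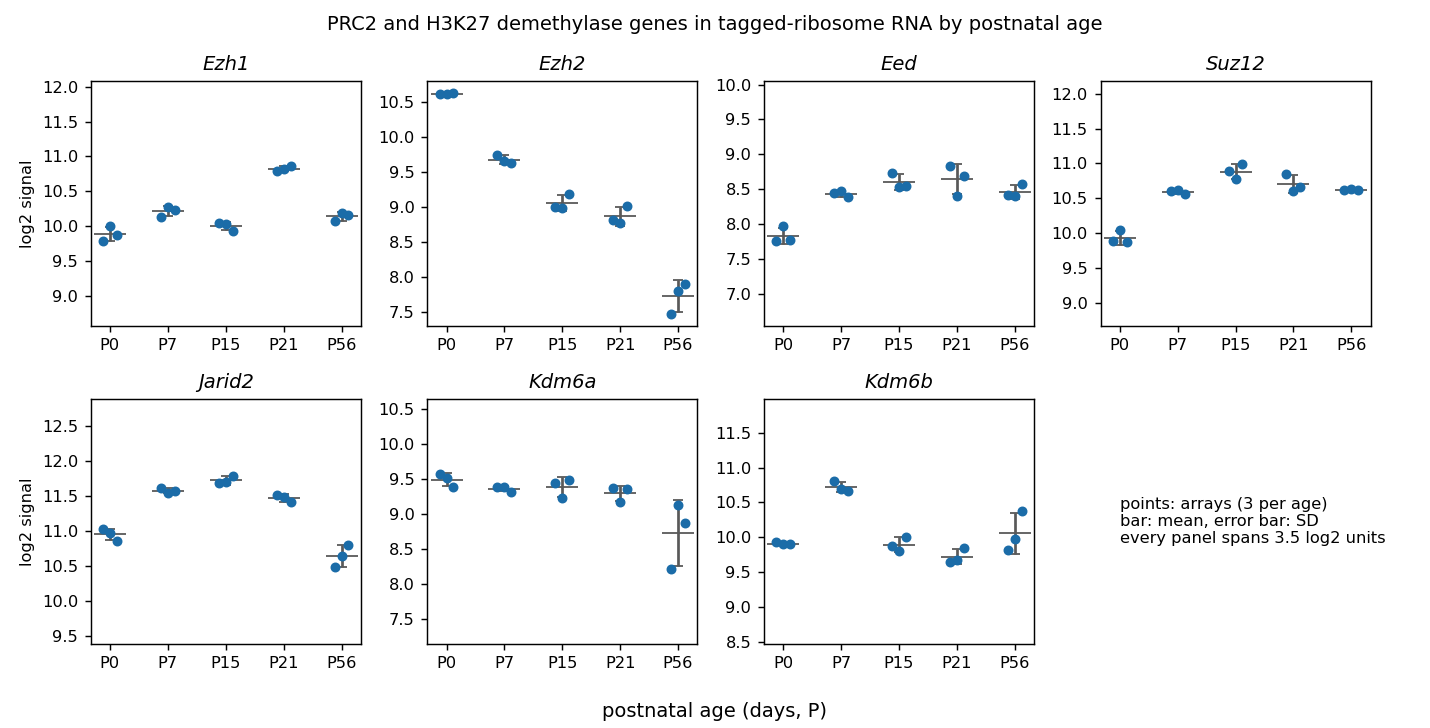
Log2 signal (vertical axis) of the 7 genes by postnatal age (horizontal axis). Points are arrays, 3 per age, horizontal bars are means and error bars are SD; every panel spans 3.5 log2 units, so slopes compare but heights between panels do not. Ezh2 steps down from 10.62 at P0 to 7.73 at P56, Ezh1 is highest at P21 (10.83), Kdm6b is highest at P7 (10.72), and Eed and Suz12 are lowest at P0.

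Proliferating cells, which use Ezh2, were also represented in the RNA. The mean signal of 13 measured markers of proliferation was 8.68 to 8.75 over the P0 arrays and 8.51 to 8.67 over those of P7. It was then 7.23 to 7.26 at P15, fell to 6.90 to 7.02 by P21 and ended at 6.72 to 6.84 by P56. All 13 fell from P0 to P56, with a median of -1.99. Their large step came between P7 and P15, when 12 of 13 fell. In the first week, when Ezh2 fell by 0.94, 5 of them fell, 2 rose and the median change was -0.04. Mki67 at P21 and Top2a at P56 lay below the lower quartile of each array. Other markers did so on some arrays. These were Top2a and Ccna2 on 1 array each at P21, and Mcm3 and Plk1 on 2 arrays each and Ccna2 on 1 at P56.

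Markers of granule cell progenitors behaved alike in time. The mean of 8 such genes was 8.83 to 8.88 at P0, 8.88 to 8.96 at P7 and 7.26 to 7.37 at P56, and 7 of 8 fell from P7 to P15. The 7 endothelial markers dropped earlier, from a mean of 9.03 to 9.10 at P0 to 6.84 to 6.91 at P7, with all 7 lower. From P21 to P56 Ezh2 fell by 1.14. The mean of the proliferation list moved from 6.90 to 7.02 down to 6.72 to 6.84. Of the 13, 8 were lower and 2 higher, and of 8 progenitor markers 3 were lower and 2 higher. Of all probe sets, 34.3% were lower and 22.1% higher. With array medians at 0, none of the 13 was lower and 3 were higher, and 1 progenitor marker was lower and 4 higher. In that setting 22.3% of all probe sets were lower and 49.9% higher, and Ezh2 fell by 0.90.

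Most glial markers fell in that last step. The mean of 7 astrocyte and Bergmann glia markers went from 9.99 to 10.05 at P21 to 9.47 to 9.63 at P56, with 4 lower, 2 higher and a median of -0.51. Fabp7, a fatty acid binding protein of radial glia and Bergmann glia, fell by 1.51, and Aldh1l1, an enzyme of astrocytes, by 1.17. The 2 higher genes were Gdf10, with means of 9.93 at P21 and 10.52 at P56, and S100b, with 9.31 and 9.64. All 7 measured oligodendrocyte markers fell as well, with a median of -1.09. The part of dividing, endothelial or glial cells in the falls of Ezh2, or of glial cells in the late falls of Jarid2 and Kdm6a, was not tested.

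The promoter of Ezh2 is shown because this gene fell most, and because genes of dividing cells often carry sites for E2F factors and CCAAT boxes, to which the factor NF-Y binds. Ezh2 lies on chromosome 6 (chr6:47530274-47595270, minus strand). RefSeq sequences of build GRCm38.p6 were searched on both strands, from 250 bases before to 50 after a gene's start, for CCAAT and for 4 E2F-type words. The first was TTCCCGC, the second TTGGCGC, the third of them TTCGCGC and the last of them TTGCCGC. The Ezh2 window held 3 CCAAT boxes and 1 E2F-type word, with no overlap between them. In the lines below the match is in capitals, each sequence is read 5′ to 3′ on the strand of the gene, and ATTGG is CCAAT on the other strand.
Ezh2 CCAAT box, first base 90 before the start, chr6:47595104-47595133: gttcggccctctgATTGGacgggcgccctc
Ezh2 CCAAT box, first base 64 before the start, chr6:47595078-47595107: cctctcgcatcctCCAATcggagaggcgct
Ezh2 CCAAT box, first base 11 before the start, chr6:47595025-47595054: aaaagcgatggcgATTGGgttgctgcgttt
Ezh2 E2F-type word, first base 5 after the start, chr6:47595009-47595038: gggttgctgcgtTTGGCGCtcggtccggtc
Of 32851 promoter windows, 37.4% held a CCAAT box, 3.37% held at least 3, 9.57% held an E2F-type word and 3.66% held both kinds. These matches describe letters and are not shown to be bound. The annotated Ezh2 gene extends upstream of the start used here, so all 4 of these matches lie inside it.

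Ezh1, the paralog of Ezh2 (chr11:101191115-101226463), did not follow it. Its signals were 9.80, 10.00 and 9.88 at P0, and 10.13, 10.28 and 10.24 at P7. They were 10.06, 10.03 and 9.93 at P15, then 10.80, 10.82 and 10.86 at P21, and 10.07, 10.19 and 10.16 at P56. The 3 arrays of P21 stood above all other arrays, and those of P0 below all of P7 and P56. P15 overlapped P0.

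Ezh1 rose by 0.82 from P15 to P21 (SE 0.07, limma adjusted p 1.27e-06) and fell by 0.68 from P21 to P56 (limma adjusted p 2.44e-07). It rose by 0.32 in the first week (limma adjusted p 0.000554), and from P0 to P56 by 0.25 (0.00389), so that the adult level was 1.19 times that of P0. The rise from P0 to P56 was 0.57 with array medians at 0, where Ezh1 fell by 0.45 from P21, and the first-week rise was 0.19 after quantile normalization. All of these were still called. P56 was not called against P15 (0.14, limma adjusted p 0.105), but was higher with medians at 0 (0.33, 0.000444) and after quantile normalization (0.31, 0.000854). Nor was it called against P7 (-0.07, 95% interval -0.22 to 0.07, limma adjusted p 0.374). P21 was thus the highest age and P0 and P15, which were not called against each other (0.11, limma adjusted p 0.174), had the lowest means. With medians at 0, P15 was called above P0 (0.239, limma adjusted p 0.00488), but not after quantile normalization (-0.004, 0.959).

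The step of Ezh1 from P7 to P15, a fall of 0.21 (limma adjusted p 0.0354), was the least firm. It was no longer called without P7 replicate 2 (-0.18), P7 replicate 3 (-0.20), P15 replicate 2 (-0.22) or P15 replicate 3 (-0.18), or with array medians at 0 (-0.14), and its adjusted p ranged from 0.00629 to 0.145 over the 23 alternatives. With medians at 0, P56 exceeded P7 by 0.19 (limma adjusted p 0.0183, range over the alternatives 0.0183 to 0.685), so the direction of that difference is not settled.

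Oligodendrocyte markers moved with Ezh1 late in the series. The mean signal of 7 measured markers was 8.92 to 9.03 at P0 and 9.67 to 9.80 at P7. It reached 10.02 to 10.08 by P15 and 10.21 to 10.43 by P21, and was 9.03 to 9.09 by P56. This mean joins opposite courses, since 4 of the 7 rose and 3 fell from P0 to P7. Against P0, 3 were higher at P56, 3 were lower and 1 was not called. Mog, for example, had means of 6.14 at P0 and 8.46 at P56, and Pdgfra 10.32 and 7.07. From P15 to P21, 3 of 7 rose and none fell by the test, and from P21 to P56 all 7 fell, with a median of -1.09. Unlike Ezh1, the list mean was also higher at P15 than at P7. Only Mog, on 1 P0 array, lay below the lower quartile. The 8 granule cell markers had a mean of 9.04 to 9.08 at P0 and 11.45 to 11.56 at P15, with 11.30 to 11.49 on the P21 arrays and 11.14 to 11.37 on those of P56. The part of either cell type in the Ezh1 peak was not tested.

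**Figure D2:**
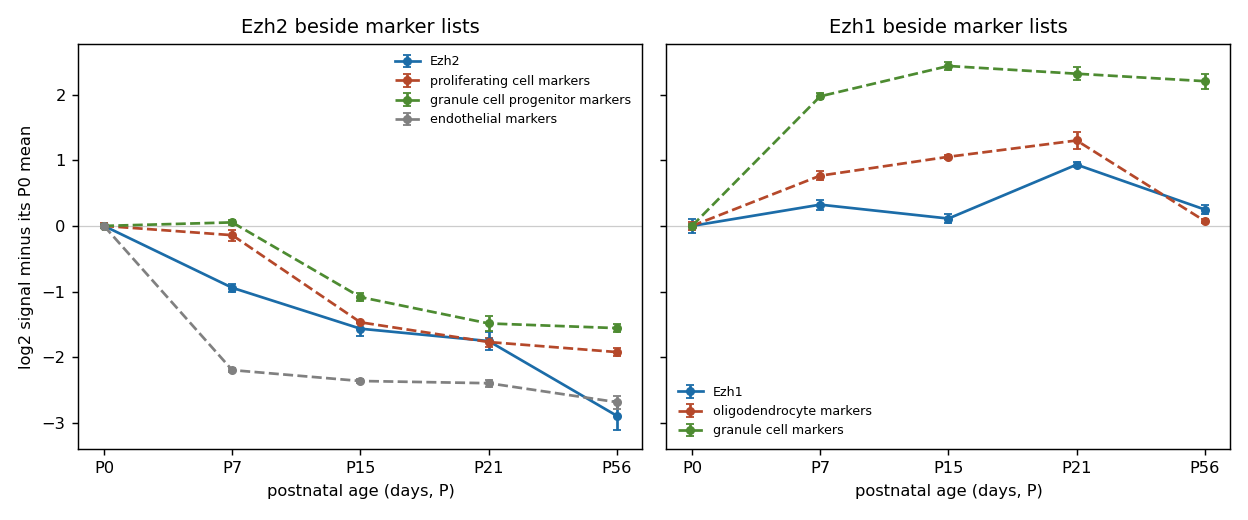
Log2 signal minus its P0 mean (vertical axis) by postnatal age (horizontal axis), for Ezh2 beside means of proliferation, granule cell progenitor and endothelial markers (left) and for Ezh1 beside oligodendrocyte and granule cell markers (right). Points are means of 3 arrays and error bars are SD. The proliferation markers step down mainly between P7 and P15, and Ezh2 is 0.94 lower at P7 than at P0. The oligodendrocyte mean and Ezh1 are both highest at P21.

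The balance of the catalytic subunits moved in 1 direction at each step. The difference Ezh1 minus Ezh2 was taken on each array and set relative to its P0 mean, since the probe sets cannot be compared as levels. It was 1.11, 1.35 and 1.33 at P7, 1.79, 1.77 and 1.48 at P15, 2.71, 2.78 and 2.57 at P21, and 3.32, 3.12 and 2.99 at P56. No 2 neighbouring ages overlapped. The change from P0 to P56 was 3.14 (SE 0.12, n = 3 per age), with an exact two-sided permutation p of 0.1, the smallest that 3 against 3 arrays can give. From P15 to P21 the difference widened by 1.01 (SE 0.12, exact permutation p 0.1), and Ezh1 accounted for 0.82 of it and Ezh2 for 0.19. From P21 to P56 it widened by 0.45 although Ezh1 fell, because Ezh2 fell by more.

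**Figure D3:**
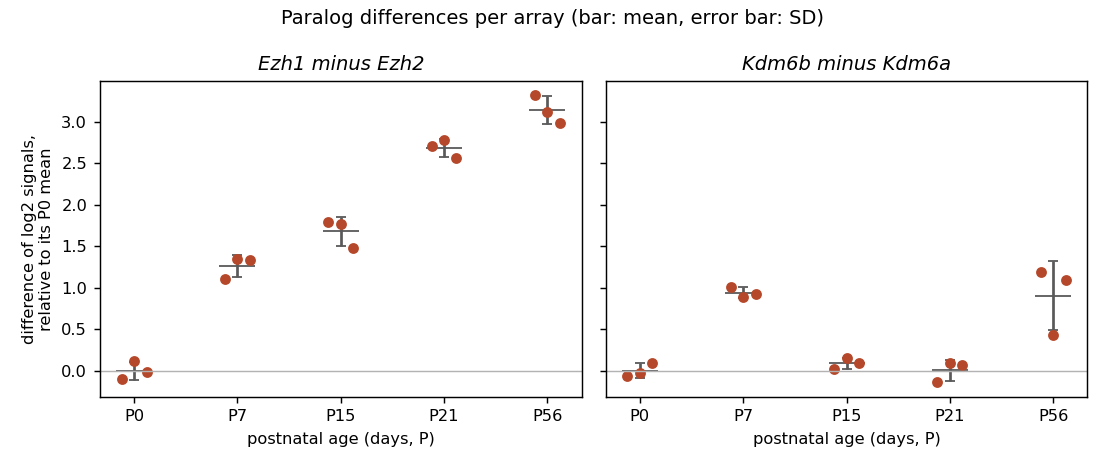
Difference of log2 signals per array, relative to its P0 mean (vertical axis), by postnatal age (horizontal axis), for Ezh1 minus Ezh2 (left) and Kdm6b minus Kdm6a (right). Points are arrays, bars are means and error bars are SD. The Ezh1 minus Ezh2 arrays climb without overlap to 2.99 to 3.32 at P56, and the Kdm6b minus Kdm6a arrays are high at P7 and P56 and near 0 at P15 and P21.

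Eed and Suz12, which the enzyme needs with either paralog, both rose in the first week and stayed above P0. Eed (chr7:89954654-89980976) had signals of 7.76, 7.97 and 7.78 at P0, 8.45, 8.47 and 8.38 at P7, and 8.73, 8.53 and 8.55 at P15. Its signals were 8.84, 8.41 and 8.69 at P21 and 8.42, 8.40 and 8.58 at P56. All 12 later arrays lay above the 3 of P0, and the later ages overlapped one another except P7 with P15.

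Eed rose by 0.60 from P0 to P7 (SE 0.10, limma adjusted p 3.59e-05), and the change from P0 to P56 was 0.63 (limma adjusted p 1.72e-05), a ratio of 1.55. With medians at 0 that change was 0.95, and after quantile normalization 0.98. None of the later steps was called, with 0.17 from P7 to P15 (limma adjusted p 0.266), 0.04 to P21 (0.852) and -0.18 to P56 (0.131). P0 was the lowest age, and no difference among the 4 later ages was called. The step from P21 to P56 was called as a fall without P21 replicate 2 (-0.30, limma adjusted p 0.0108) and had the opposite sign after quantile normalization (0.12). With medians at 0, Eed was higher at P56 than at P7 by 0.30 (limma adjusted p 0.0116), and by 0.33 after quantile normalization, against 0.03 in the deposited values.

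Suz12 (chr11:79993106-80034123) had signals of 9.89, 10.05 and 9.87 at P0, 10.61, 10.62 and 10.56 at P7, and 10.89, 10.77 and 10.99 at P15. They were 10.86, 10.60 and 10.66 at P21 and 10.62, 10.63 and 10.62 at P56. Here too all later arrays lay above those of P0, and P15 lay above P7 and P56. Suz12 rose by 0.66 from P0 to P7 (SE 0.08, limma adjusted p 7.71e-07) and by a further 0.29 to P15 (0.011).

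At P56 Suz12 was 0.68 above P0 (limma adjusted p 3.69e-07), a ratio of 1.60. It was 0.26 below P15 (limma adjusted p 0.00835), a difference not called with medians at 0 (-0.07, 0.45) or after quantile normalization (-0.13, 0.16). P21 was not called against P7, P15 or P56. The step to P15 was not called without P15 replicate 3 (0.24, limma adjusted p 0.0626, range over the alternatives 0.00204 to 0.0626), and the step from P15 to P21, -0.18, was called without P21 replicate 1 (-0.25, limma adjusted p 0.0379, range 0.0379 to 0.417). With medians at 0, Suz12 was 0.29 higher at P56 than at P7 (limma adjusted p 0.00313), against 0.03 in the deposited values.

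The sequences upstream of Suz12 and Eed are shown because these genes had the most alike courses among the core subunits, each lowest at P0. Both are the 250 bases before the RefSeq start, from GRCm38.p6, read 5′ to 3′ on the strand of the gene, with matches to the words above in capitals.
Suz12, chr11:79992856-79993105, plus strand: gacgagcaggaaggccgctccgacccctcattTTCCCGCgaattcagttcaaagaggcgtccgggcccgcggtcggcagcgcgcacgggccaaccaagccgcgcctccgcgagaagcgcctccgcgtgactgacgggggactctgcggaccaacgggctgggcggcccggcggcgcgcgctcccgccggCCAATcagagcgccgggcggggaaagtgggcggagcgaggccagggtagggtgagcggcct
Eed, chr7:89980977-89981226, minus strand: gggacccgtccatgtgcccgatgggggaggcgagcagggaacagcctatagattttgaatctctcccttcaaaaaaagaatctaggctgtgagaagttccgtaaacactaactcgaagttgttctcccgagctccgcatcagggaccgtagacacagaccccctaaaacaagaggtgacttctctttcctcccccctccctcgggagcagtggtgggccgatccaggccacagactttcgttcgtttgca
Suz12 held the E2F-type word TTCCCGC 218 bases before its start and a CCAAT box 61 bases before it. None of the words lay in the 250 bases before Eed, whose window held a single CCAAT box with its first base 26 after the start. Each of the 2 entries for Jarid2 held 1 CCAAT box, and the windows of Ezh1 and Kdm6a held neither kind. Entries were found for 6 of the 7 genes, all but Kdm6b. 

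Jarid2, the accessory subunit (chr13:44730774-44921643), rose early and fell late. Its signals were 11.02, 10.97 and 10.86 at P0, 11.62, 11.54 and 11.57 at P7, and 11.68, 11.70 and 11.79 at P15. They were 11.51, 11.49 and 11.41 at P21 and 10.48, 10.64 and 10.80 at P56. The P56 arrays were the lowest of all, and the P0 arrays lay between them and the other ages without overlap.

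Jarid2 rose by 0.63 from P0 to P7 (SE 0.08, limma adjusted p 1.26e-06) and fell by 0.83 from P21 to P56 (8.17e-08), which left it 1.08 below P15 (3.35e-09). P7 was not called against P15 (0.14, limma adjusted p 0.218) or P21 (-0.11, limma adjusted p 0.376). The step from P15 to P21 was a fall of 0.25 (limma adjusted p 0.0337), which was not called without P15 replicate 1 (-0.27), P15 replicate 2 (-0.26), P15 replicate 3 (-0.22), P21 replicate 2 (-0.26) or P21 replicate 3 (-0.22), with adjusted p from 0.013 to 0.126 over the alternatives. From P0 to P56 Jarid2 fell by 0.31 (limma adjusted p 0.00163), but with array medians at 0 the change was 0.01 (limma adjusted p 0.888, the highest over the alternatives), so its adult level against P0 is not settled.

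Kdm6a, the X-linked demethylase that acts in complexes with Kmt2c and Kmt2d (chrX:18160862-18279936), had no called step from P0 to P21 and was lower at P56. Its signals were 9.57, 9.51 and 9.38 at P0, 9.38, 9.38 and 9.32 at P7, and 9.43, 9.22 and 9.48 at P15. They were 9.36, 9.17 and 9.35 at P21, and 8.20, 9.12 and 8.86 at P56. All P56 arrays lay below all others, and P56 replicate 1 stood lowest by far (SD at P56 0.47, against 0.04 to 0.14 at the other ages). That array also gave the lowest P56 signal of Ezh1, Ezh2, Jarid2 and Kdm6b.

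Kdm6a fell by 0.76 from P0 to P56 (SE 0.16, limma adjusted p 0.000287), by 0.63 from P7 to P56 (0.00228) and by 0.56 from P21 to P56 (0.00513). The steps before P21 were between -0.13 and 0.03, and their 95% intervals reached from -0.46 to 0.35. Without P56 replicate 1 the falls were smaller but still called, at -0.50 from P0, -0.36 from P7 and -0.30 from P21 (limma adjusted p 0.000248, 0.00477 and 0.0158). The change with array medians at 0 was -0.44 from P0 (limma adjusted p 0.0137) and -0.36 from P7 (0.0412), and after quantile normalization the latter was -0.34 (0.0498). The fall from P21 was not called after quantile normalization (-0.28, limma adjusted p 0.108) or with medians at 0 (-0.33, 0.0635), and ranged from 0.000271 to 0.108 in adjusted p over the alternatives.

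Sex-linked genes are given beside Kdm6a because it lies on the X chromosome and escapes X inactivation. Xist, the RNA of the inactive X, had signals of 11.86 to 11.92 at P0, 6.47 to 6.61 at P7 and 5.81 to 6.19 at P56. The Y-linked genes Kdm5d and Eif2s3y fell in the first week by 1.20 and 1.04. Uty, the Y-linked relative of Kdm6a, was not called in that week (0.13, limma adjusted p 0.293) or between P56 and P0 (-0.10, 0.394), though the latter was called higher with medians at 0 (0.22, 0.0484) and after quantile normalization (0.25, 0.0388). Over P0 to P56 the X-linked genes Kdm5c, Eif2s3x and Ddx3x fell by 0.34, 0.60 and 0.34. With medians at 0 their changes were -0.02, -0.28 and -0.02, and only that of Eif2s3x was called. Kdm6a changed by -0.13 over the week in which Xist fell by 5.34. The sex of the pooled animals is not in the labels, and its part in the course of Kdm6a was not tested.

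Kdm6b (chr11:69398508-69420367), a demethylase that responds to signals, was highest at P7. Its signals were 9.93, 9.90 and 9.90 at P0, and 10.81, 10.69 and 10.67 at P7. They were 9.88, 9.80 and 10.01 at P15, 9.65, 9.68 and 9.85 at P21, and 9.82, 9.98 and 10.38 at P56. The 3 arrays of P7 lay above all others, and the remaining ages overlapped apart from P0 with P21.

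Kdm6b rose by 0.81 from P0 to P7 (SE 0.11, limma adjusted p 4.02e-06), a ratio of 1.75, and fell by 0.82 from P7 to P15 (3.98e-05). The fall stood at percentile 1.2 of the changes of all probe sets in that step. P15 differed from P0 by -0.01 (limma adjusted p 0.919), and P21 was not called against either. After quantile normalization, however, P21 was called below P0 (-0.327, limma adjusted p 0.00882), and with medians at 0 it was not (-0.099, 0.424). From P21 to P56 Kdm6b rose by 0.33 (limma adjusted p 0.0159) with overlapping arrays. The rise was 0.57 with medians at 0 and 0.53 after quantile normalization. That call was lost without P21 replicate 1 (0.29, limma adjusted p 0.0604), without P56 replicate 3 (0.17, 0.0986) and when only those ages were fitted (0.0691), with adjusted p from 0.000231 to 0.0986 over the alternatives. P56 against P0, 0.15 (95% interval -0.09 to 0.38, limma adjusted p 0.236), was called as a rise without P56 replicate 1 (0.27, 0.0304) and with medians at 0 (0.47, 0.000707), and was -0.02 without P56 replicate 3. P56 was below P7 by 0.66, a change of -0.40 with medians at 0 that was still called (limma adjusted p 0.0034).

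The demethylases diverged at P7 and again at P56. The difference Kdm6b minus Kdm6a, relative to its P0 mean, was 1.01, 0.89 and 0.93 at P7, 0.02, 0.15 and 0.10 at P15, and -0.14, 0.09 and 0.07 at P21. At P56 it was 1.19, 0.43 and 1.10. From P0 to P7 it changed by 0.94 (SE 0.06, exact two-sided permutation p 0.1, the smallest possible), and Kdm6b made up 0.81 of it. From P0 to P56 it changed by 0.90 (SE 0.24, exact permutation p 0.1), of which Kdm6a made up 0.76, and without P56 replicate 1 the change was 0.76. P56 and P7 did not differ beyond their spread (-0.04, SE 0.24, exact permutation p 1.0).

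Counted together, 6 of the 7 genes were called between P0 and P7, 5 higher (Ezh1, Eed, Suz12, Jarid2 and Kdm6b) and 1 lower (Ezh2), where 62.1% of all probe sets were called, 33.6% higher and 28.5% lower. The median change of the 7 was 0.60, beside 0.05 for all probe sets. Between P7 and P15, 4 were called (1 higher and 3 lower, against 24% of all probe sets, 10.4% higher and 13.6% lower), and the count was 2 without P15 replicate 3. Between P15 and P21, 2 were called (1 higher and 1 lower, against 17.7%, 10.5% higher and 7.16% lower). That count was 1 without any of P15 replicate 1, 2 or 3 and P21 replicate 2 or 3, left out singly, and 3 without P21 replicate 1.

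Between P21 and P56, 5 were called, Kdm6b higher and Ezh1, Ezh2, Jarid2 and Kdm6a lower, against a background of 56.4% (22.1% higher, 34.3% lower). The median change was -0.56, beside -0.03 for all probe sets. From P0 to P56, 6 were called, Ezh1, Eed and Suz12 higher and Ezh2, Jarid2 and Kdm6a lower, where 75.4% of all probe sets were (40.1% higher, 35.3% lower). With medians at 0, Ezh1, Eed, Suz12 and Kdm6b were higher and Ezh2 and Kdm6a lower. Of all probe sets, 61.7% were then higher and 26.3% lower. From P7 to P56, with Purkinje markers high at both ends, Ezh2, Jarid2, Kdm6a and Kdm6b were lower and none was higher (background 59.6%, with 25.4% higher and 34.2% lower), by 1.95, 0.94, 0.63 and 0.66. All 7 were called from P7 to P56 with array medians at 0, those 4 lower and Ezh1 (0.19), Eed (0.30) and Suz12 (0.29) higher, where 55.6% of all probe sets were higher and 21.8% lower. All 7 genes differed between some ages by the F-test (limma adjusted p 3.87e-13 to 0.00191), as did 81.6% of all probe sets, so being called is close to the background in the long comparisons. With array medians at 0, 6 of the 7 were called, all but Kdm6a (limma adjusted p 0.057). The share of all probe sets called by the F-test in that setting was not computed. The comparisons that share an age share its 3 arrays.

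Other PRC2 subunits changed in both directions. The 8 measured were the histone-binding Rbbp4 and Rbbp7, the Polycomb-like proteins Phf1, Mtf2 and Phf19, and Aebp2, Epop and Lcor. From P0 to P56, 3 rose and 4 fell, where 40.1% of all probe sets were higher and 35.3% lower. The median was -0.14 beside 0.08 for all probe sets. With array medians at 0, 4 rose and 2 fell, where 61.7% of all probe sets were higher and 26.3% lower. Neither Rbbp7 (0.10, limma adjusted p 0.228) nor Mtf2 (-0.17, 0.0826) was then called as a fall. Rbbp7, at -0.22 in the deposited values (limma adjusted p 0.0149), was also not called without P0 replicate 1 (-0.19), without P56 replicate 2 (-0.14), with probe sets averaged (-0.10) or with only those ages fitted. Phf1, which recruits PRC2 and binds methylated H3K36, had signals of 9.74, 9.61 and 9.64 at P0 and of 11.43, 11.46 and 11.40 at P56. Its rise of 1.76 (SE 0.07, limma adjusted p 1.68e-13) was built up over 3 called steps, 0.53 in the first week, 0.37 from P15 to P21 and 0.71 from P21 to P56. No other gene of this list was called in the step from P15 to P21.

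Rbbp4, a histone chaperone also found in other complexes, fell by 1.01 from P21 to P56 (SE 0.09, limma adjusted p 3.33e-08), from 11.48, 11.46 and 11.69 to 10.74, 10.34 and 10.53. Lcor, whose locus also encodes the PRC2 cofactor PALI1, fell by 1.20 in the first week (SE 0.14, limma adjusted p 8.28e-07), from 9.56, 9.47 and 9.52 to 8.34, 8.32 and 8.30. Epop, which links PRC2 to elongin, rose by 0.79 in that week (limma adjusted p 2.81e-05) and Aebp2, which joins PRC2 together with Jarid2, by 0.42 (0.000355). In the first week 5 of the 8 rose and 1 fell, where 33.6% of all probe sets were higher and 28.5% lower. From P21 to P56, 2 rose and 3 fell, where 22.1% of all probe sets were higher and 34.3% lower. With medians at 0 that was 4 and 1, beside 49.9% and 22.3%.

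Partners of Kdm6a in the complex with Kmt2c and Kmt2d also moved both ways. Of the 9 measured, 3 rose and 5 fell from P0 to P56 (median -0.62, and -0.30 with array medians at 0). Of all probe sets, 40.1% were higher and 35.3% lower in the deposited values. The H3K4 methyltransferases Kmt2c and Kmt2d fell by 0.85 and 0.99 in the first week (limma adjusted p 3.41e-07 and 2e-08), a week in which Kdm6a was not called. Kmt2c went from 10.47, 10.51 and 10.46 to 9.59, 9.66 and 9.63, and Kmt2d from 10.17, 10.14 and 10.08 to 9.13, 9.14 and 9.16. Dpy30, a small subunit shared by H3K4 methyltransferases, rose by 0.91 in the same week (SE 0.06, limma adjusted p 3.64e-10), and Pagr1a, which works with Paxip1 in this complex, by 0.92 (SE 0.11, limma adjusted p 8.7e-07). From P21 to P56, when Kdm6a fell, 4 of the 9 fell and none rose by the test. Of all probe sets, 34.3% were lower and 22.1% higher. With medians at 0, 4 fell and 4 rose, where 22.3% of all probe sets were lower and 49.9% higher. The 4 that fell in the deposited values were Kmt2c (-0.91), Pagr1a (-0.84), Wdr5 (-0.67) and Ash2l (-0.63).

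**Figure D4:**
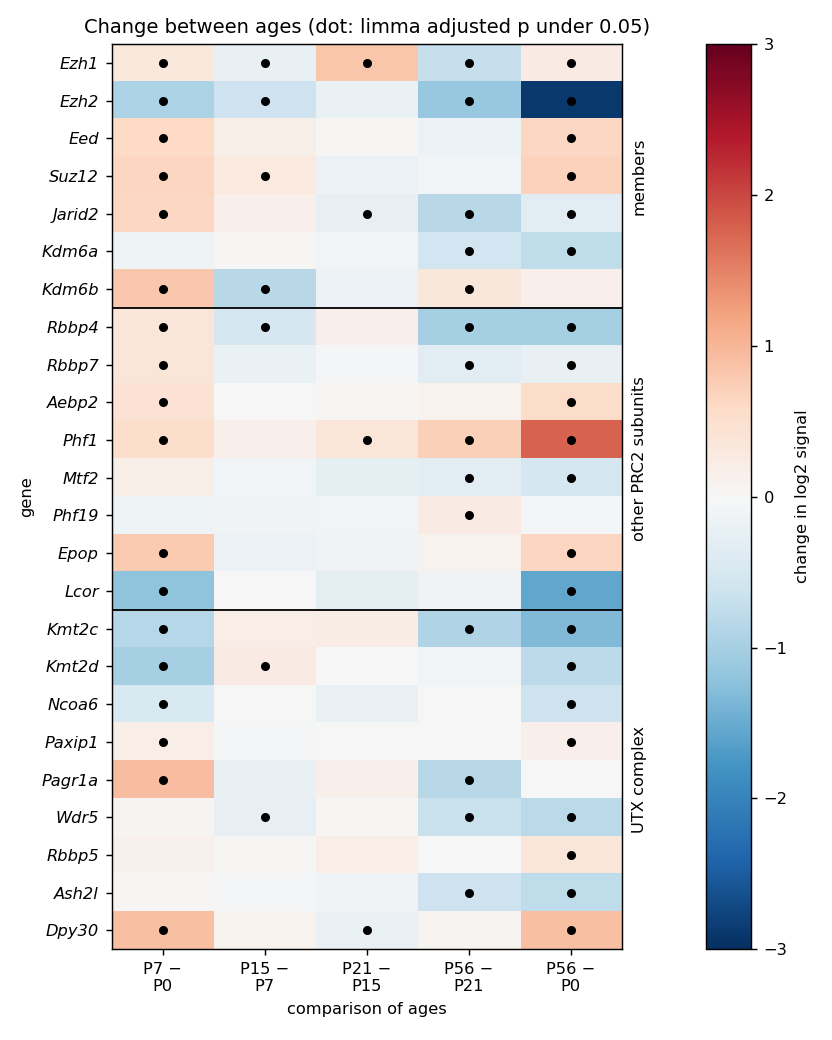
Change in log2 signal (colour) between ages (columns) for the 7 genes, other PRC2 subunits and partners of Kdm6a (rows); a dot marks a limma adjusted p under 0.05 over all probe sets. The darkest blue cell is Ezh2 from P0 to P56 (-2.89) and the darkest red cell is Phf1 (1.76), and the first-week column holds most of the red among the 7 genes.

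Developmental regulators that PRC2 is known to silence had a mean signal below the array medians at every age given here, although single genes such as Pax7 at P0 lay above them. The mean signal of 18 such genes was 6.70 to 6.79 at P0, 6.59 to 6.62 at P7 and 6.72 to 6.87 at P56, where the lower quartile of an array was 5.86 to 6.01. Tbx5, Hoxa9 and Hoxd10 lay below that quartile on every array of P0 and P56. From P0 to P56, 10 of them rose, 5 fell and the other 3 missed the threshold. Of all probe sets, 40.1% were higher and 35.3% lower. The median change was 0.28 beside 0.08 for all probe sets. With array medians at 0, 13 rose and 3 fell, where 61.7% of all probe sets were higher and 26.3% lower. The median was then 0.60 beside 0.41. After quantile normalization 9 rose and 5 fell, where 39.6% of all probe sets were higher and 33.9% lower. In the deposited values the largest change was the fall of Pax7 (-1.76, SE 0.09, limma adjusted p 7.6e-12). Next came the fall of Pax3 (-1.44, SE 0.07, limma adjusted p 3.86e-12). Both are paired box factors of early neural and muscle lineages.

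Pax7 dropped in the first week, from 8.98, 9.04 and 9.32 at P0 to 7.03, 7.08 and 7.01 at P7. Hand2 and Hoxb9 each rose by 0.82 from P0 to P56, to signals of 7.34, 7.21 and 6.95 and of 7.28, 7.24 and 7.25, above the lower quartile and below the array median. From P21 to P56, 7 of the 18 rose and none fell by the test, where 22.1% of all probe sets were higher and 34.3% lower. The median was 0.25, beside -0.03 for all probe sets. With array medians at 0, 15 of the 18 rose in that step, where 49.9% of all probe sets were higher and 22.3% lower. The median was then 0.48 beside 0.21 for all probe sets. Whether these changes relate to the fall of Ezh2 was not tested.

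Genes with the course most like each of the 7 were found by Pearson correlation of log2 signals over the 15 arrays. Arrays of an age lie close together, so r mostly compares the courses over 5 ages, and it is given as a description. Nearest to Ezh2 were Cdh9, a cadherin (r 0.995), the surface protein Cd24a (0.994), Dpysl3 of growing neurites (0.994) and the receptor subunit Neto1 (0.993). For Ezh1 they were muscle glycogen phosphorylase Pygm (0.959), Ndrg1 (0.946), the kinesin adaptor Mapk8ip3 (0.940) and Spire2 (0.933).

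Eed was nearest to the calcineurin subunit Ppp3r1 (0.965), Tmem230 (0.962), Sdr42e1 (0.959) and Snx5 (0.959). For Suz12 they were Echdc1 (0.986), the oligodendrocyte myelin glycoprotein Omg, Tank and Pnrc2 (0.983 each). Jarid2 was nearest to Hccs (0.990), the lysyl oxidase Lox (0.986), Qpctl (0.982) and Tmem17 (0.981), and Kdm6a to Fign (0.954), Ap3b1 (0.949), Pyroxd2 (0.939) and Tbc1d19 (0.938). Kdm6b was nearest to Bahcc1 (0.971), Gse1 (0.956), Ccdc18 (0.943) and the Polycomb repressive complex 1 subunit Bcor (0.939).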

How the data were processed

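RNA bound to tagged ribosomes was measured on 15 arrays, 3 at each of 5 ages, grouped by the age in the labels. The values are log2 signals per probe set that the authors normalized and deposited. Affymetrix Power Tools is named, per the submitters' processing notes. Not given in the sources used here are its version and algorithm, the background correction, the normalization and the base of the logarithm. Base 2 was taken because values lie between 3.15 and 14.08. The files give no depth and no background level, so the number of arrays limits the precision, and a signal under an array's lower quartile is not shown to be above background.

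Gene symbols came from the platform annotation of 2016, which gave 1 symbol to 20996 of 22092 probe sets, several to 91, and did not list 1005. A second lookup through Entrez numbers covered 20959 symbols and changed 0. The probe set with the highest mean stood for a gene. Probes without a gene are tested but unnamed.

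limma 3.58.1 in R 4.3.3 fitted the 15 arrays together, 1 mean for each age and no other term, with 10 residual and 6.5 prior degrees of freedom. Tests were two-sided, with Benjamini-Hochberg adjustment within each comparison over all probe sets. Differences between paralogs used an exact permutation test of 3 against 3 arrays. The fit was checked on simulated data. Python 3.11.15 and matplotlib 3.10.9 did the rest. The main fit did not pair arrays by replicate number, and the labels do not say whether the numbers pair them. Deviations of same-numbered arrays correlated from -0.31 to 0.45, with 5 of 30 pairs over 0.1. Those of other pairs correlated from -0.42 to 0.24, with 10 of 60 over 0.1. These ranges do not settle whether arrays were paired.

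The members and gene lists were chosen with earlier results of these data known. The rule named all 7 members, sex-linked genes beside Kdm6a, Pcp2 and Rpl10a, and the 4 genes most like each member. Of the developmental regulators it named up to 4 called genes per comparison with the largest change. Any measured gene of the other PRC2 subunits and of the partners of Kdm6a could be named. It also listed the cell type markers. A few listed genes were not analysed here. Of the remaining marker lists, the mean of 7 astrocyte and Bergmann glia genes was 10.23 to 10.29 at P0 and 9.47 to 9.63 at P56, and that of 7 microglia genes 7.56 to 7.60 and 6.41 to 6.60. Rpl10a changed by -0.15 from P0 to P56. Alternatives were quantile normalization, array medians at 0, array weights, a trended robust prior, leaving out the 50% of probe sets with the lowest means, the replicate number as a block, averaging a gene's probe sets, fits of only the 2 ages compared, and leaving out each array in turn.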

Additional observations from a re-analysis of the deposited data

How the results depend on the processing

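Of 1324 values of single genes under 23 alternatives, 1270 kept their direction and side of the threshold, 27 lost a call, 11 gained one and 16 changed sign. Many of these values could not change direction. Leaving out an array of an age not compared leaves the log2 change as it was, and only its p-value can move. The same holds for the replicate block, the trended prior, the filter on low means and fits of only the 2 ages compared. Averaging probe sets changes nothing for a gene with 1 probe set. The values for P15 against P56 and the counts of the gene lists under other scalings were added after seeing the data. So were the values under other scalings for P0 against P15 of Ezh1 and P0 against P21 of Kdm6b. Every comparison of Ezh2 was among those kept. With array medians at 0, 7 members were called from P7 to P56, 3 higher and 4 lower, in place of 4, all lower. When arrays were left out in turn, the members called ranged from 2 to 4 for P15 minus P7 and from 1 to 3 for P21 minus P15. Signs changed for Ezh1 from P7 to P56 (0.108 after quantile normalization, 0.19 with medians at 0), Eed from P15 to P21 (-0.00507 after quantile normalization, and from -0.0547 to 0.16 without single arrays), Eed from P21 to P56 (0.118 and 0.055), Eed from P15 to P56 (0.113 and 0.058), Eed from P7 to P56 (-0.0258 to 0.0622 without single arrays), Suz12 from P21 to P56 (0.0601 and 0.149), Jarid2 from P0 to P56 (0.0123 with medians at 0), Kdm6a from P7 to P15 (-0.0255 to 0.104 without single arrays), Kdm6b from P0 to P56 (-0.0167 to 0.267 without single arrays) and Rbbp7 from P0 to P56 (0.102 with medians at 0). Where medians were set to 0 the reference itself moved, and in the other settings the cause was not tested. With the replicate number as a block, the members called were 6, 4, 2, 5, 6 and 4 for P7 minus P0, P15 minus P7, P21 minus P15, P56 minus P21, P56 minus P0 and P56 minus P7, as without it. Among the members, the calls lost most often when single arrays were left out were those of Jarid2 from P15 to P21 (5 arrays) and Ezh1 from P7 to P15 (4 arrays).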
